A study of Mus musculus with 12 samples.

Results

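The complement and coagulation genes described here are 41 genes for proteins of the complement and blood clotting cascades, 20 on the complement side and 21 on the coagulation side. They were listed by name, and each gene was represented by a probe set that carried its symbol alone, the one with the highest mean where there were several. Such a probe set was used for 37 of the 41 (18 complement and 19 coagulation genes), among 19937 genes represented in this way in the series. All 37 passed the filter on low values, which left 17904 genes for testing. C3, Cfd and Cpb2 are not analysed here, and Klkb1 (prekallikrein) was on a probe set that it shares with Cyp4v3.

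The livers came from male C57Bl/6 mice, 12 in all, with 1 Affymetrix whole-transcript array per animal and 3 separate animals in each of 4 groups. The groups were HDAC6 Y/- knockout mice given dexamethasone, HDAC6 Y/- mice given vehicle, wild-type mice given dexamethasone and wild-type mice given vehicle. Dexamethasone, a synthetic glucocorticoid, was injected intraperitoneally at 1 mg/kg over 3 weeks, and all mice were fed ad libitum under a regular cycle of day and night. The age of the mice, the content of the vehicle, the construction of the knockout and the interval between the last injection and dissection are not given in the sources used here. Values are deposited log2 intensities, on which 1 unit is a doubling, and a gene is compared across arrays but not with other genes.

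Complement is a cascade of plasma proteases, opsonins and pore-forming proteins that marks and lyses microbes. It is started through the classical route (C1q with the proteases C1r and C1s), the lectin route (mannose-binding lectins with the MASP proteases) or the alternative route (factor B and properdin). Coagulation is the protease cascade in which prothrombin becomes thrombin, which cuts fibrinogen into fibrin, while the protein C pathway restrains it and plasmin dissolves the clot. Hepatocytes secrete most proteins of both cascades, and some of their genes, fibrinogen and factor B among them, belong to the acute-phase response, in which glucocorticoids are known to act together with inflammatory cytokines.

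Promoter windows are shown for Mbl1 and C6, the genes that passed the test under dexamethasone, for Mbl2, the paralogue of Mbl1, and for Fga and Fgb, whose products are chains of fibrinogen. Each runs 5′ to 3′ from 250 bases before to 50 bases after the RefSeq transcript start in build GRCm38.p6. Capitals mark matches to AGAACA (a glucocorticoid response half-site), TTCNNNGAA (STAT), TTGCNNAA (C/EBP) or GTTAAT (an HNF1 half-site) on either strand. Mbl1 lies at chr14:41151206-41151505 (plus strand), Mbl2 at chr19:30232678-30232977 (plus strand), C6 at chr15:4726960-4727259 (plus strand), Fga at chr3:83025903-83026202 (plus strand) and Fgb at chr3:83049814-83050113 (minus strand).
Mbl1: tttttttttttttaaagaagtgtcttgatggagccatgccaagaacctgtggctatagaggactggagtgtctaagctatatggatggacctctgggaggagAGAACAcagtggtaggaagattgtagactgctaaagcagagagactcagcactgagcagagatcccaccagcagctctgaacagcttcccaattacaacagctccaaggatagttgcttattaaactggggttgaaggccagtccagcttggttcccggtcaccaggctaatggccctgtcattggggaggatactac
Mbl2: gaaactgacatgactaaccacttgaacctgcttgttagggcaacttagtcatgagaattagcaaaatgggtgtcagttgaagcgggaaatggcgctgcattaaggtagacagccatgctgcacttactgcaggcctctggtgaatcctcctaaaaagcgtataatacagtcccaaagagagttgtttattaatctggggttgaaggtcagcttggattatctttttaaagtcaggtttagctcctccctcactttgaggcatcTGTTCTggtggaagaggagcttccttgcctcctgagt
C6: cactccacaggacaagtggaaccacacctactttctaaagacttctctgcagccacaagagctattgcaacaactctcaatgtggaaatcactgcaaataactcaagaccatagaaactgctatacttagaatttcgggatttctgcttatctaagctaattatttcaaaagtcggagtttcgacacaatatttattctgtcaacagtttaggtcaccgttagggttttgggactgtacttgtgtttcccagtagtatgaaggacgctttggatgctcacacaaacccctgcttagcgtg
Fga: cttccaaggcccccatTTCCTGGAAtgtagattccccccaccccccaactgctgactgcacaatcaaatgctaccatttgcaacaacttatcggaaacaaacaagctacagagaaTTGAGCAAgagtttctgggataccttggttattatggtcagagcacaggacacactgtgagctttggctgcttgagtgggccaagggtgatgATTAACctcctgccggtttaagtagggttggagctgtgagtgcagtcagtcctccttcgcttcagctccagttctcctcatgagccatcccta
Fgb: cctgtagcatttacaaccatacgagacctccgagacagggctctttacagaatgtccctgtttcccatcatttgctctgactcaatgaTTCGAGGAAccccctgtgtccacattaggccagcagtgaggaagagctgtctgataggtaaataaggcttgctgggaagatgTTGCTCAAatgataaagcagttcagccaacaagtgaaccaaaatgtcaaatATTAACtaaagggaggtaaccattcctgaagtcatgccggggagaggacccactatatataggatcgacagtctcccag
The Mbl1 match to AGAACA begins at position -148 relative to the start, and that of Mbl2 lies on the other strand at position 14. The longest run that both lectin promoters share is ctggggttgaagg, which begins at position -23 in Mbl1 and at -57 in Mbl2. It occurs in 3 of all 32851 promoter windows. The run was picked from these windows for its length, so this count is a description only. The C6 window holds none of the 4 motifs, while those of Fga and Fgb each hold STAT, C/EBP and HNF1 matches in the same order. The window of Fgg, the gene for the third chain, holds none of these 3 motifs and has AGAACA at position -183 on the other strand. RefSeq windows were matched for 28 of the 37 genes (30 starts). AGAACA was found in 13 of the 30 windows (43.3%), against 19% of all windows. TTCNNNGAA was found in 8 (26.7%, against 8.3%), TTGCNNAA in 8 (26.7%, against 10.8%) and GTTAAT in 12 (40%, against 7.1%). A match is a description of letters only.

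Hdac6 (probe set 10603387) stood at 3.62, 3.89 and 3.75 in knockout mice on dexamethasone and at 4.40, 4.07 and 3.90 in knockout mice on vehicle. It stood at 5.86, 6.18 and 5.92 in wild-type mice on dexamethasone and at 6.09, 6.08 and 6.43 in wild-type mice on vehicle, so every array matched the genotype in its label. The correlation between arrays was 0.9846 to 0.9912 for arrays of the same group and 0.9739 to 0.9914 for arrays of different groups. Albumin, which defines hepatocytes, stood between 13.03 and 13.13 in every array, and the neutrophil marker S100a8 (2.02 to 2.48) and the adipocyte marker Adipoq (1.98 to 2.84) lay near the 20th percentile of the arrays (2.17 to 2.23). The means of several marker lists differed with treatment. For 11 hepatocyte markers the array means were 12.42 to 12.49 on dexamethasone and 12.25 to 12.34 on vehicle in knockout mice, and 12.41 to 12.47 on dexamethasone and 12.30 to 12.32 on vehicle in wild-type mice. Of this list Tat (1.21) and Hnf4a (0.39) passed the limma test as higher on dexamethasone averaged over genotypes. Its other markers changed by -0.10 to 0.10 and did not pass. For 12 adipocyte markers the array means were 4.05 to 4.38 on dexamethasone and 3.69 to 3.94 on vehicle in knockout mice, and 4.19 to 4.40 on dexamethasone and 3.81 to 4.15 on vehicle in wild-type mice. These markers did not move together. In the average over genotypes Thrsp (2.45), Cidec (1.46) and Fabp4 (0.56) passed as higher by limma and Lipe (-0.35) as lower. The others, Adipoq (-0.17) among them, changed by -0.44 to 0.14 and did not pass. For 10 lymphocyte markers the array means were 2.46 to 2.61 in the 6 dexamethasone arrays. They were 2.65 to 2.84 in the 6 vehicle arrays, and every mean lay below the median of its array. Averaged over genotypes Cd79a (-0.41), Cd79b (-0.41), Cd3g (-0.37) and Ms4a1 (-0.26) passed as lower by limma. The other lymphocyte markers changed by -0.23 to 0.01 and did not pass. For 10 stellate cell markers the array means in knockout mice were 5.54 to 5.68 on dexamethasone and 5.60 to 5.91 on vehicle. In wild-type mice they were 5.59 to 5.67 on dexamethasone and 5.78 to 6.09 on vehicle. In the same average Pdgfrb (-0.81) and Col3a1 (-0.43) passed as lower and Hand2 (0.44) as higher. The other stellate cell markers changed by -0.46 to 0.04 and did not pass. The part of these shifts in the results was not tested. In 4 arrays (knockout vehicle 3, wild-type dexamethasone 3 and wild-type vehicle 1 and 2) the mean of 17 exocrine pancreas genes was 7.28 to 9.25, against 3.04 to 3.40 in the other 8. These arrays are left out in a separate calculation wherever that changes a call. The Kupffer cell and endothelial markers also differed between groups and are given beside properdin and thrombomodulin below.

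On dexamethasone most of the hepatic complement and coagulation transcripts stayed within a doubling or halving of their vehicle level, as did most genes tested. In knockout mice 1 of the 37 genes passed the limma test at an adjusted p of 0.05, Mbl1, which was lower. In wild-type mice 2 passed, Mbl1, which was lower, and C6, which was higher. Over all tested genes the share that passed was 8.29% in knockout and 11.5% in wild-type mice, against 2.7% and 5.41% of these genes. By direction, 3.92% of all genes were lower in knockout mice, and 6.95% were lower and 4.57% higher in wild-type mice. The change was under 0.25 in size (log2) for 35 of the 37 genes in knockout mice (94.6%, against 78.6% of all genes) and for 30 in wild-type mice (81.1%, against 74%). The 95% interval lay within a doubling or halving for 36 genes in knockout mice, all but A2m (97.3%, against 94.5% of all genes), and for 35 in wild-type mice, all but Mbl1 and Cfp (94.6%, against 93.3%). In wild-type mice both shares were not far above those of all genes. A larger share of these genes than of all genes had no overlap there between dexamethasone and vehicle arrays, mostly as lower, as given below. The median change was -0.07 in knockout and -0.08 in wild-type mice, against -0.01 and 0.01 over all genes tested, and 26 and 27 of the 37 estimates were below 0. The self-test on simulated data for the wild-type comparison recovered 96.8% of genes changed by 1 (log2) but 31.7% of those changed by 0.5, so changes of the smaller size can be missed here.

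**Figure D1:**
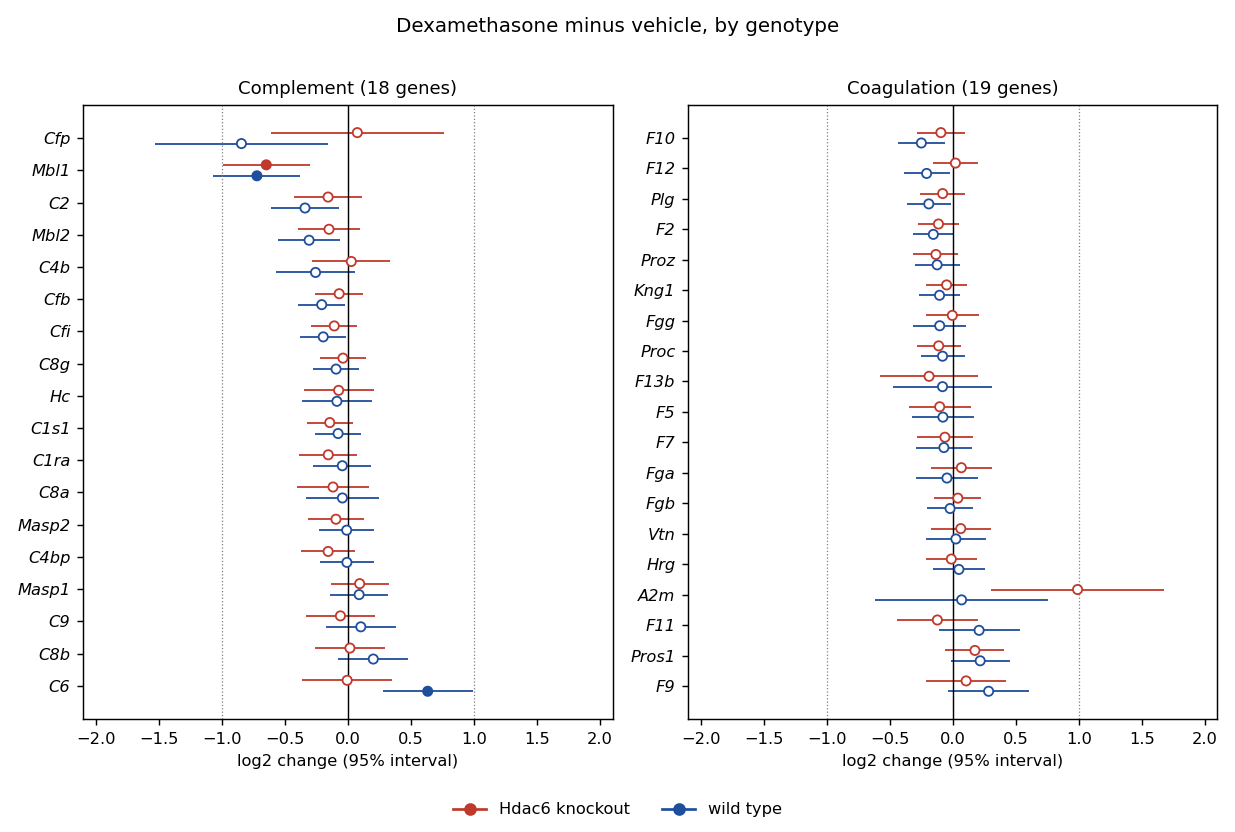
Log2 change under dexamethasone relative to vehicle for the 18 complement and 19 coagulation genes, knockout and wild type, as points with 95% intervals from limma; filled points have an adjusted p under 0.05 and dotted lines mark a doubling and a halving. Mbl1 is filled in both genotypes at -0.65 and -0.72, C6 only in wild type at 0.63, and the other points are open.

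Mbl1 (probe set 10414211) encodes mannose-binding lectin A, which binds microbial sugars and starts the lectin route. It stood at 7.89, 7.75 and 7.71 in knockout mice on dexamethasone, against 8.47, 8.60 and 8.23 on vehicle. In wild-type mice it stood at 7.64, 6.97 and 7.64 on dexamethasone, against 8.09, 8.10 and 8.23 on vehicle. All 6 arrays on dexamethasone were below all 6 on vehicle, and wild-type dexamethasone 2 was the lowest. The change was -0.65 ± 0.16 (SE, limma adjusted p = 0.0228) in knockout mice and -0.72 ± 0.16 (adjusted p = 0.00993) in wild-type mice. Averaged over genotypes it was -0.68 ± 0.11 (adjusted p = 0.00077), a level 1.61-fold lower on dexamethasone, and Mbl1 was the only gene of the 37 to pass in that average, where 17.2% of all genes passed and 9.94% passed as lower. The knockout call was lost without knockout vehicle 1 or 2 or knockout dexamethasone 2 or 3 (changes of -0.56 to -0.63, adjusted p up to 0.0954). Without the 4 arrays with pancreas transcripts the change was -0.75 (adjusted p = 0.0411) in knockout mice and -0.92 (adjusted p = 0.0841) in wild-type mice, with 1 wild-type vehicle array left.

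The other genes of the classical and lectin routes did not pass the test. Mbl2, mannose-binding lectin C, stood at 10.08, 10.03 and 10.04 in knockout mice on dexamethasone, against 10.04, 10.38 and 10.18 on vehicle. In wild-type mice Mbl2 stood at 10.04, 9.75 and 10.16 on dexamethasone, against 10.29, 10.38 and 10.21 on vehicle. The wild-type groups did not overlap and the knockout groups did, with changes of -0.15 ± 0.12 in knockout mice (limma adjusted p = 0.591) and -0.31 ± 0.12 in wild-type mice (adjusted p = 0.114). C2, the protease that pairs with C4 in the C3 convertase of these routes, showed the same layout. Its group means were 7.37 ± 0.22 on dexamethasone and 7.52 ± 0.16 on vehicle in knockout mice, and 7.27 ± 0.09 on dexamethasone and 7.61 ± 0.16 on vehicle in wild-type mice (SD, n = 3 each). The wild-type change of C2 was -0.34 ± 0.13 (adjusted p = 0.109). The lectin-route proteases Masp1 and Masp2 and the C1 proteases C1ra and C1s1 changed by -0.16 to 0.09 across both genotypes, and none passed. C4b, the other substrate of these proteases, stood at 10.24 ± 0.29 and 10.22 ± 0.08 in knockout mice on dexamethasone and vehicle, and at 9.91 ± 0.14 and 10.17 ± 0.20 in wild-type mice on dexamethasone and vehicle (SD, n = 3). C4b and C1ra have near-identical copies, C4a and C1rb, whose transcripts can bind the same probes, so their values are uncertain between copies.

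On the alternative route, Cfb (factor B, the protease of the alternative C3 convertase) averaged 11.51 ± 0.07 on dexamethasone and 11.58 ± 0.02 on vehicle in knockout mice. It averaged 11.28 ± 0.07 on dexamethasone and 11.48 ± 0.12 on vehicle in wild-type mice (SD, n = 3 each), a change of -0.21 ± 0.09 (limma adjusted p = 0.163). Cfp encodes properdin, which stabilises that convertase and is made mainly by leukocytes. It stood at 6.52, 6.85 and 5.65 in knockout mice on dexamethasone, against 6.12, 6.54 and 6.12 on vehicle. In wild-type mice Cfp stood at 6.05, 5.51 and 5.72 on dexamethasone, against 7.35, 6.18 and 6.29 on vehicle. The wild-type groups did not overlap, and wild-type vehicle 1 was far above its group. The wild-type change was -0.84 ± 0.32 and did not pass (adjusted p = 0.115); without wild-type vehicle 1 it was -0.47. The knockout change was 0.07 ± 0.32, and the difference between the genotypes' changes, 0.92 ± 0.45, did not pass either (adjusted p = 0.812).

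The 16 Kupffer cell markers, read for the liver's resident macrophages, had array means of 6.56, 7.01 and 6.18 in knockout mice on dexamethasone and 6.53, 6.71 and 6.38 on vehicle. The same means were 5.97, 5.57 and 6.03 in wild-type mice on dexamethasone and 7.28, 6.55 and 6.54 on vehicle. In wild-type mice 13 of the 16 were lower and 1 was higher on dexamethasone by the limma test, and in knockout mice 0 were lower and 1 was higher (2 at an unadjusted p under 0.05). All 16 exceeded the 20th percentile in every array, and 3 of them are the C1q genes described further on. Properdin ran along with this mean over the 12 arrays, with wild-type vehicle 1 highest in both measures and wild-type dexamethasone 2 lowest in both. The part of these cells in the Cfp values was not tested, and in whole liver fewer cells of a type and less RNA per cell cannot be told apart.

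**Figure D2:**
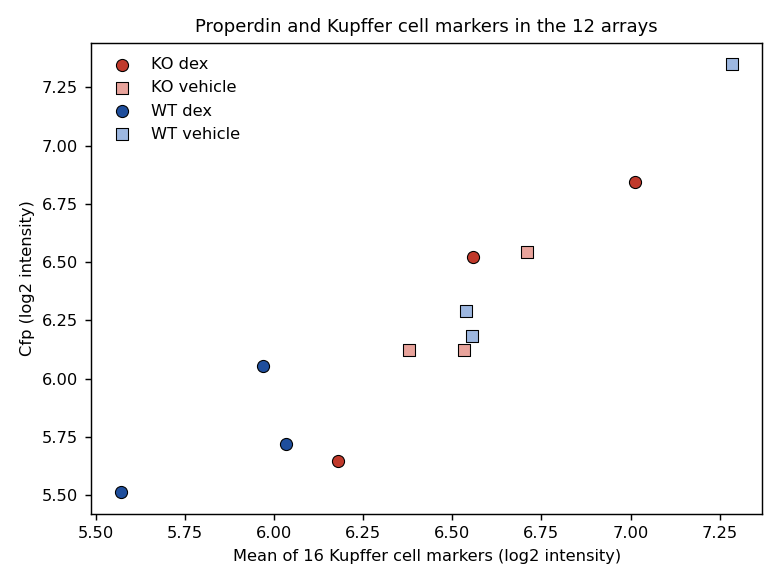
Cfp level (y axis, log2 intensity) against the mean of 16 Kupffer cell markers (x axis, log2 intensity) in each of the 12 arrays, with colour for genotype, circles for dexamethasone and squares for vehicle. Wild-type vehicle 1 is the top point at 7.28 and 7.35, and wild-type dexamethasone 2 the bottom point at 5.57 and 5.51.

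Among the terminal components, which form the membrane attack complex, C6 (probe set 10422635) passed the test as higher on dexamethasone in wild-type mice, the only one of the 37 genes to do so in either genotype. It stood at 9.73, 9.93 and 9.96 in knockout mice on dexamethasone, against 9.72, 10.16 and 9.75 on vehicle. In wild-type mice C6 stood at 10.24, 10.25 and 9.88 on dexamethasone, against 9.49, 9.17 and 9.81 on vehicle. The wild-type groups did not overlap, though wild-type dexamethasone 3 and wild-type vehicle 3 lay close together, and the knockout groups overlapped throughout. The change was -0.01 ± 0.17 in knockout mice (95% interval -0.36 to 0.35) and 0.63 ± 0.17 in wild-type mice (limma adjusted p = 0.0249). The difference between the changes was -0.64 ± 0.23, which did not pass (limma adjusted p = 0.754; unadjusted p = 0.0174, the smallest of the 37 genes). The wild-type call was lost without wild-type vehicle 1, wild-type vehicle 2, wild-type dexamethasone 1 or wild-type dexamethasone 2 (0.47 to 0.63, adjusted p up to 0.0975) and without the 4 arrays with pancreas transcripts (0.44, adjusted p = 0.327). The remaining terminal genes, Hc (which encodes C5), C8a, C8b, C8g and C9, changed by -0.12 to 0.20 over the 2 genotypes, and none passed.

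Neither of the inhibitors passed the test in either genotype. C4bp, which binds C4b and helps to destroy it, averaged 10.87 ± 0.03 on dexamethasone and 11.02 ± 0.04 on vehicle in knockout mice, and 10.75 ± 0.17 on dexamethasone and 10.76 ± 0.11 on vehicle in wild-type mice (SD, n = 3 each). Cfi, factor I, which cleaves C3b and C4b, averaged 11.09 ± 0.04 on dexamethasone and 11.20 ± 0.03 on vehicle in knockout mice. In wild-type mice Cfi averaged 10.91 ± 0.12 on dexamethasone and 11.10 ± 0.05 on vehicle (SD, n = 3 each). The knockout groups did not overlap for either gene, yet the changes of -0.16 and -0.11 did not pass. The Cfi mean fell further in wild-type mice, where the groups overlapped.

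**Figure D3:**
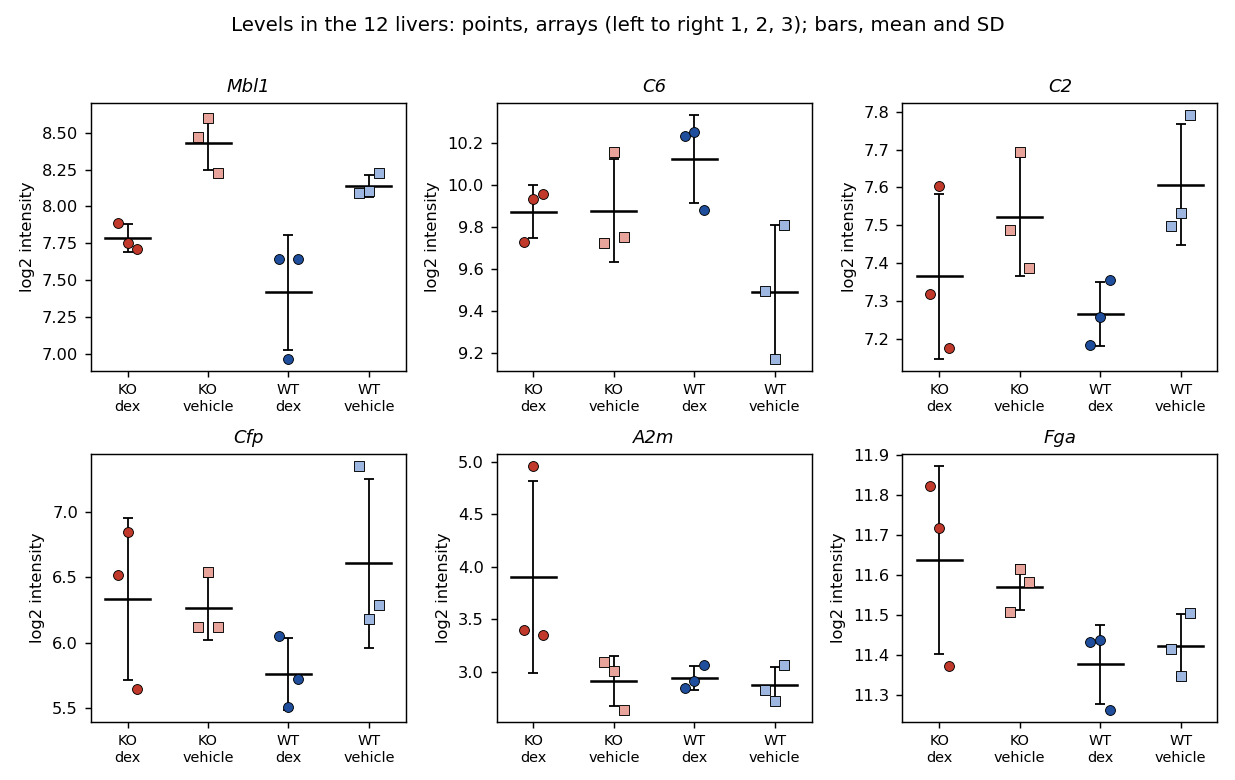
Log2 intensity (y axis) of 6 genes, Mbl1, C6, C2, Cfp, A2m and Fga, in the 4 groups, with 1 point per array and bars for the mean and SD of 3 arrays. Mbl1 is lower in all 6 dexamethasone arrays than in all 6 vehicle arrays, and the high A2m mean of the knockout dexamethasone group rests on 1 array at 4.96.

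None of the 19 coagulation genes passed the limma test in either genotype. At an unadjusted p under 0.05 there were 1 in knockout and 3 in wild-type mice, against 18.5% and 23.6% of all genes. In wild-type mice all 19 had a 95% interval within a doubling or halving. F2, prothrombin, varied least of the 37 genes within groups (SD 0.038). It stood at 11.48, 11.45 and 11.42 in knockout mice on dexamethasone, against 11.54, 11.57 and 11.58 on vehicle. In wild-type mice F2 stood at 11.43, 11.40 and 11.48 on dexamethasone, against 11.54, 11.65 and 11.59 on vehicle. All 6 arrays on dexamethasone were below all 6 on vehicle, as for Mbl1, but the changes were small, -0.11 ± 0.08 in knockout and -0.15 ± 0.08 in wild-type mice, and did not pass (adjusted p = 0.51 and 0.24). Mbl1 and F2 were the only 2 of the 37 genes (5.41%) with all 6 dexamethasone arrays on the same side of all 6 vehicle arrays, against 8.76% of all genes tested (4.47% lower on dexamethasone).

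Among the other vitamin K-dependent proteases, F10, which activates prothrombin, averaged 10.52 ± 0.11 on dexamethasone and 10.61 ± 0.03 on vehicle in knockout mice. In wild-type mice F10 averaged 10.38 ± 0.10 on dexamethasone and 10.63 ± 0.01 on vehicle (SD, n = 3 each), a change of -0.25 ± 0.09 (limma adjusted p = 0.0899). With each array centred on its median the F10 change was -0.30 and passed (adjusted p = 0.0423). F7 and F9, the proteases of the extrinsic and intrinsic tenase complexes, changed by -0.07 to 0.28, and F9 was low in wild-type vehicle 2 (8.58, against 9.16 and 9.32 in the other 2 arrays of the group). In the contact pathway F12, which starts it, averaged 9.89 ± 0.07 on dexamethasone and 9.87 ± 0.04 on vehicle in knockout mice, and 9.89 ± 0.02 on dexamethasone and 10.10 ± 0.11 on vehicle in wild-type mice (SD, n = 3 each). F11 and Kng1 (kininogen, whose near-identical copy Kng2 makes the value uncertain) changed by -0.12 to 0.21. F5, the cofactor of F10, and F13b, the carrier subunit of the fibrin cross-linking enzyme, changed by -0.19 to -0.08.

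Fibrinogen transcripts did not pass in either genotype. Fga stood at 11.82, 11.72 and 11.37 in knockout mice on dexamethasone, against 11.51, 11.62 and 11.58 on vehicle. In wild-type mice Fga stood at 11.43, 11.44 and 11.26 on dexamethasone, against 11.42, 11.35 and 11.51 on vehicle. The groups overlapped in each genotype, with changes of 0.07 ± 0.11 in knockout and -0.05 ± 0.11 in wild-type mice. Fgb and Fgg, the genes for the other 2 chains, changed by 0.04 and -0.00321 in knockout mice and by -0.02 and -0.10 in wild-type mice. On the same arrays 11 of 20 listed acute-phase and cytokine-signalling genes, a list that holds none of the 37, were higher on dexamethasone in knockout mice and 9 of 20 in wild-type mice, and 0 were lower in either (limma, against 4.38% and 4.57% of all genes higher).

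The anticoagulant genes Proc (protein C), Pros1 (its cofactor protein S) and Proz (protein Z) changed by -0.13 to 0.22. Plg, the precursor of plasmin, averaged 11.85 ± 0.05 on dexamethasone and 11.93 ± 0.07 on vehicle in knockout mice, and 11.73 ± 0.09 on dexamethasone and 11.92 ± 0.01 on vehicle in wild-type mice (SD, n = 3 each). Hrg and Vtn, plasma proteins that bind heparin and, for Vtn, the plasminogen activator inhibitor, changed by -0.01 to 0.06. A2m, the broad protease inhibitor alpha-2-macroglobulin, stood at 3.39, 4.96 and 3.35 in knockout mice on dexamethasone, against 3.09, 3.01 and 2.64 on vehicle. In wild-type mice A2m stood at 2.84, 2.91 and 3.07 on dexamethasone, against 2.82, 2.72 and 3.06 on vehicle. These are low values on the arrays, whose medians were 3.13 to 3.24, and knockout dexamethasone 2 alone was far above the rest. The change was 0.99 ± 0.32 in knockout mice (limma adjusted p = 0.0803) and 0.07 ± 0.32 in wild-type mice, and without knockout dexamethasone 2 the knockout change was 0.46 (adjusted p = 0.0964). It passed without knockout dexamethasone 1 (1.24, adjusted p = 0.0378) or 3 (1.26, adjusted p = 0.0386) and with array weights (1.16, adjusted p = 0.0364).

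Set side by side, the complement and the coagulation genes had similar median changes, while their means differed. The median change of the complement genes was -0.08 in knockout and -0.08 in wild-type mice, and that of the coagulation genes was -0.05 in knockout and -0.08 in wild-type mice. Of the 18 complement genes 14 had an estimate below 0 in each genotype, and of the 19 coagulation genes 12 in knockout and 13 in wild-type mice. In wild-type mice 12 of 18 complement genes (66.7%) and 18 of 19 coagulation genes (94.7%) had changes under 0.25 in size, against 74% of all genes. The coagulation gene beyond that size was F9. Over its 18 genes the complement mean was 9.64 ± 0.11 on dexamethasone and 9.74 ± 0.07 on vehicle in knockout mice, and 9.53 ± 0.08 on dexamethasone and 9.66 ± 0.09 on vehicle in wild-type mice. The coagulation mean was 10.14 ± 0.10 on dexamethasone and 10.12 ± 0.01 on vehicle in knockout mice, and 10.04 ± 0.05 on dexamethasone and 10.07 ± 0.09 on vehicle in wild-type mice (SD, n = 3 arrays each). The complement mean minus the coagulation mean was -0.54 to -0.45 on dexamethasone and -0.43 to -0.29 on vehicle in knockout mice, and -0.57 to -0.45 on dexamethasone and -0.42 to -0.41 on vehicle in wild-type mice. This difference was lower in all 6 dexamethasone arrays than in all 6 vehicle arrays. Single genes with wide changes, such as Mbl1, Cfp in wild-type mice and A2m in knockout mice, enter these means at full size. The means were not recalculated without these genes, so the difference cannot be read as a shift of either side as a whole. Dexamethasone and vehicle arrays did not overlap for 8 of the 37 genes in knockout mice (2 higher and 6 lower; 21.6%, against 24.3% of all genes, 11.7% higher and 12.6% lower). In wild-type mice they did not overlap for 15 (2 higher and 13 lower; 40.5%, against 27% of all genes, 12.5% higher and 14.5% lower).

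Some arrays were the lowest or highest of their group for many of these genes. Knockout dexamethasone 3 was the lowest array of its group for 27 of the 37 genes (12 complement and 15 coagulation), and knockout dexamethasone 2 the highest for 20. Wild-type vehicle 2 was the lowest of its group for 22, wild-type vehicle 3 the highest for 25, and wild-type dexamethasone 3 the lowest for 19. The same counts were not made over all tested genes, so these do not separate the 37 genes from the rest of the array. Pancreas transcripts averaged 3.08 in knockout dexamethasone 3, 7.28 in wild-type dexamethasone 3 and 8.99 in wild-type vehicle 2, and their part in these counts was not tested.

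The knockout changed none of the 37 genes by the limma test, under dexamethasone, under vehicle or averaged over both. At an unadjusted p under 0.05 there were 7 under dexamethasone (18.9%, against 8.75% of all genes), 3 under vehicle (8.11%, against 7.19%) and 10 in the average (27%, against 10%). Few genes passed anywhere, 0.0279% of all tested genes under dexamethasone, 0.101% under vehicle and 0.0503% in the average. The median change from wild type to knockout was 0.07 under dexamethasone and 0.05 under vehicle, against 0 to 2 decimals over all genes, and 25 of the 37 estimates were above 0 under each treatment. The 95% interval lay within a doubling or halving for 35 genes under dexamethasone, all but Cfp and A2m (94.6%, against 98.3% of all genes), and for 36 under vehicle, all but Cfp (97.3%, against 98.4%).

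Knockout and wild-type arrays did not overlap for 8 of the 37 genes under dexamethasone (7 higher and 1 lower in the knockout; 21.6%, against 14% of all genes, 6.9% higher and 7.07% lower). Under vehicle they did not overlap for 11 (9 higher and 2 lower; 29.7%, against 11.8% of all genes, 5.8% higher and 6.04% lower). For 0 of the 37 did all 6 knockout arrays lie on the same side of all 6 wild-type arrays, against 0.357% of all genes. For Mbl1, Cfb, Hc, Cfi and F5 every knockout array was above every wild-type array of the same treatment, under both treatments. The share of all genes with this layout was not calculated, and some gaps were very small. The nearest knockout and wild-type arrays stood at 8.2299 and 8.2265 for Mbl1 under vehicle. For Cfi under dexamethasone they stood at 11.0583 and 11.0483. The knockout change of Hc was 0.27 ± 0.13 under dexamethasone and 0.26 ± 0.13 under vehicle, that of Mbl1 0.37 ± 0.16 and 0.29 ± 0.16, and that of Cfb 0.24 ± 0.09 and 0.10 ± 0.09, each with an adjusted p of 0.477 to 0.84. For fibrinogen every knockout vehicle array was above every wild-type vehicle array for all 3 chains, by mean differences of 0.15 ± 0.11 (Fga), 0.10 ± 0.09 (Fgb) and 0.11 ± 0.10 (Fgg), and overlapped under dexamethasone, where the changes were 0.26 ± 0.11, 0.16 ± 0.09 and 0.21 ± 0.10. None of these passed (adjusted p = 0.542 to 0.844). Under vehicle F12 (-0.23 ± 0.08) and F7 (-0.17 ± 0.10) were lower in every knockout array than in every wild-type array, and under dexamethasone F11 was (-0.16 ± 0.15). None of these 3 passed. The comparisons under dexamethasone and under vehicle use different arrays, but each shares its arrays with the dexamethasone comparisons above. Pancreas transcripts were uneven between the genotypes. Under vehicle their mean was 9.25 and 8.99 in wild-type arrays 1 and 2, and 7.97 in array 3 of the knockout group. Under dexamethasone their mean was 7.28 in wild-type array 3, and 3.08 to 3.40 in the knockout arrays. Wild-type vehicle 3, at 3.08, was the highest of its group for 25 of the 37 genes and the lowest for 4. The part of pancreas transcripts in the genotype differences was not tested.

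**Figure D4:**
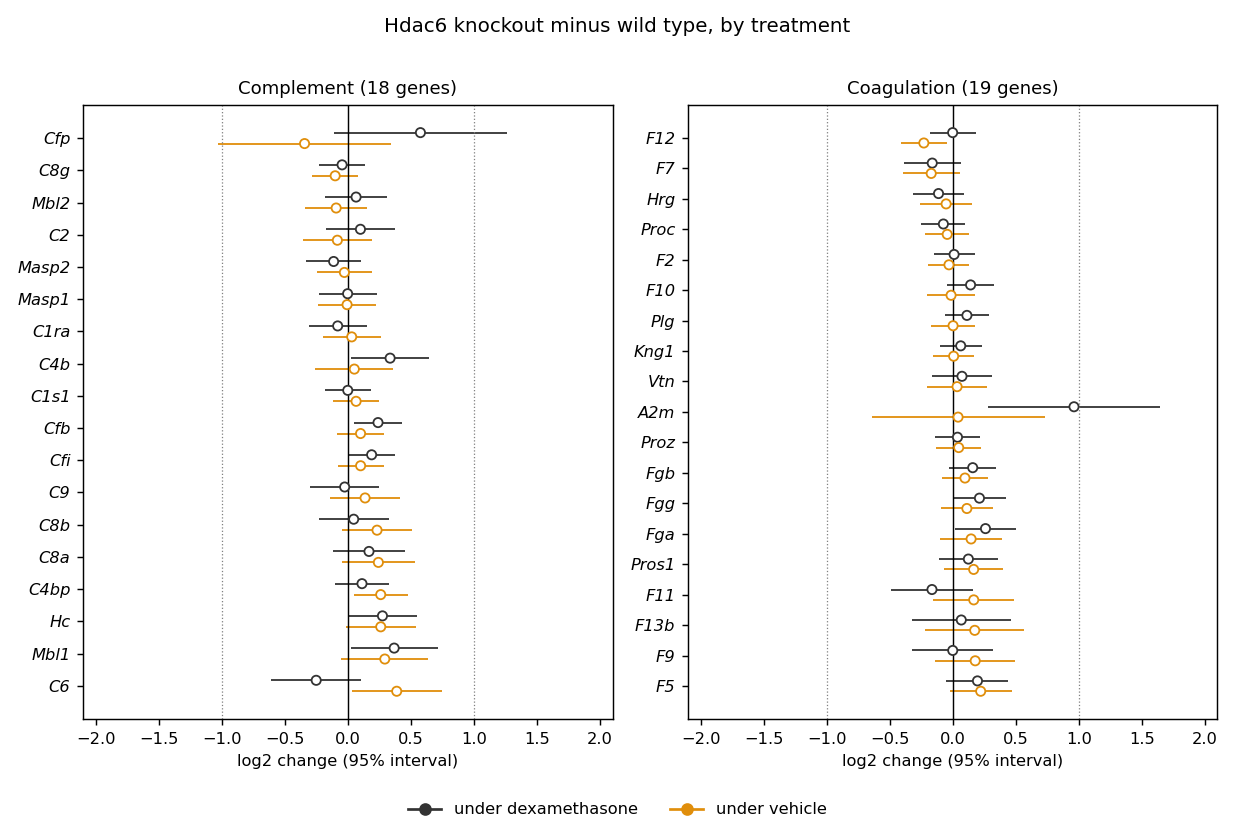
Log2 change in the knockout relative to wild type for the 18 complement and 19 coagulation genes, under dexamethasone and under vehicle, as points with 95% intervals from limma; dotted lines mark a doubling and a halving. Every point is open (adjusted p of 0.05 or more), and 25 of 37 points lie above 0 under each treatment.

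The response to dexamethasone did not differ detectably between the genotypes for any of the 37 genes. In the interaction, the knockout's change minus the wild type's, 0 genes passed, as did 0 of all 17904 genes (0%), and 1 of the 37, C6, had an unadjusted p under 0.05 by limma (2.7%, against 6.19% of all genes). The median was 0.01. The interval reached beyond a doubling or halving for C6, Cfp and A2m, so that for these 3 genes a difference of that size lies within the interval, and for the other 34 it lies outside.

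Other genes of both cascades were taken from lists that hold none of the 37. Of 25 tested complement receptors, regulators and further components, 1 was higher and 0 were lower on dexamethasone in knockout mice, where 3 had an unadjusted p under 0.05 (against 18.5% of all genes), and 1 was higher and 5 were lower in wild-type mice (limma). That is 4% of the list in knockout and 24% in wild-type mice, against 8.29% and 11.5% of all genes. C4a, the near-identical copy of C4b, rose in both genotypes. It averaged 8.07 ± 0.08 on dexamethasone and 7.40 ± 0.39 on vehicle in knockout mice, and 7.98 ± 0.27 on dexamethasone and 7.16 ± 0.05 on vehicle in wild-type mice (SD, n = 3 each). Its changes were 0.67 ± 0.17 (adjusted p = 0.0259) and 0.83 ± 0.17 (adjusted p = 0.0064), against 0.03 and -0.26 for C4b in knockout and wild-type mice, and signal from sequence that both copies share cannot be assigned to either. The knockout call for C4a was lost without knockout vehicle 1 (0.48) or 3 or knockout dexamethasone 2 or 3, and both were lost without the arrays with pancreas transcripts (0.68 in knockout and 0.76 in wild-type mice).

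The 5 lower genes in wild-type mice are known in macrophages. C1qa, C1qb and C1qc encode the chains of C1q, which starts the classical route. C1qa stood at 7.20, 7.64 and 6.95 in knockout mice on dexamethasone, against 7.35, 7.27 and 7.17 on vehicle, with overlapping groups. In wild-type mice C1qa stood at 6.86, 6.56 and 6.85 on dexamethasone, against 7.73, 7.27 and 7.25 on vehicle, without overlap. The wild-type changes were -0.66 ± 0.17 for C1qa (limma adjusted p = 0.023), -0.82 ± 0.23 for C1qb (adjusted p = 0.0386) and -0.95 ± 0.22 for C1qc (adjusted p = 0.0142), and the knockout changes were -0.000411, 0.21 and -0.03. Itgb2, the beta chain of the integrin complement receptors, changed by 0.09 ± 0.26 in knockout and -1.10 ± 0.26 in wild-type mice (adjusted p = 0.0146), and C3ar1, the receptor of the C3a anaphylatoxin, by -0.69 ± 0.34 and -1.23 ± 0.34 (adjusted p = 0.032 in wild-type mice). The differences between the genotypes' changes did not pass (0.53 to 1.18, adjusted p = 0.667 to 0.909). All 5 wild-type calls were lost without the arrays with pancreas transcripts (-0.54 to -0.76) and without wild-type dexamethasone 2 (-0.56 to -1.29), those of the C1q genes also without wild-type vehicle 1 (-0.50 to -0.75). The C1qb call was lost as well without wild-type vehicle 2 (-0.88) or knockout vehicle 1 (-0.82), and that of C3ar1 without wild-type dexamethasone 1 (-1.22) or 3 (-1.17). The knockout change of C3ar1 passed without wild-type vehicle 1 (-0.69, adjusted p = 0.0179) and without the arrays with pancreas transcripts (-0.78, adjusted p = 0.0415). The Kupffer cell means given above moved with these genes, but C1qa, C1qb and C1qc are themselves among the markers averaged. The means were not recalculated without them, and the part of Kupffer cells in these values was not tested.

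Of 30 tested regulators and further genes of coagulation, 2 were higher and 1 was lower on dexamethasone in knockout mice, and 3 were higher and 4 lower in wild-type mice (limma). That is 10% of the list in knockout and 23.3% in wild-type mice, against 8.29% and 11.5% of all genes. Serpina5, the protein C inhibitor, changed most. It stood at 4.63, 6.23 and 6.09 in knockout mice on dexamethasone, against 2.61, 2.46 and 2.87 on vehicle. In wild-type mice Serpina5 stood at 5.86, 6.06 and 5.28 on dexamethasone, against 2.71, 2.56 and 2.38 on vehicle. Every dexamethasone array was far above every vehicle array, and the vehicle values were near the low end of the array. Its changes were 3.00 ± 0.33 in knockout mice (adjusted p = 6.87e-05) and 3.19 ± 0.33 in wild-type mice (adjusted p = 4.32e-05), and the fold is not exact at such low vehicle values. Thbd, thrombomodulin, the endothelial receptor that turns thrombin toward protein C activation, stood at 5.66, 5.65 and 5.70 in knockout mice on dexamethasone, against 3.93, 4.03 and 4.16 on vehicle. In wild-type mice Thbd stood at 5.77, 5.58 and 6.33 on dexamethasone, against 4.48, 4.09 and 4.17 on vehicle. Again no dexamethasone array overlapped a vehicle array, with changes of 1.63 ± 0.16 in knockout mice (adjusted p = 2.76e-05) and 1.65 ± 0.16 in wild-type mice (adjusted p = 2.58e-05), about 3.1-fold. Both genes kept their calls in both genotypes without the arrays with pancreas transcripts. The means of 14 endothelial cell markers were 6.42 to 6.57 on dexamethasone and 6.43 to 6.58 on vehicle in knockout mice, and 6.27 to 6.42 on dexamethasone and 6.55 to 6.73 on vehicle in wild-type mice, lower without overlap in wild-type mice. The single markers moved in both directions. Averaged over genotypes Lyve1 passed the limma test as higher (2.21), and every other marker that passed was lower, Kdr most (-1.14). The part of endothelial cells in the values of Thbd and, below, Tfpi was not tested.

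F3, tissue factor, which starts coagulation, was lower in knockout mice, at 3.13, 3.02 and 3.01 on dexamethasone, against 3.86, 3.34 and 3.62 on vehicle. In wild-type mice F3 stood at 3.03, 3.22 and 2.82 on dexamethasone, against 3.22, 3.37 and 3.53 on vehicle. The changes were -0.55 ± 0.14 (limma adjusted p = 0.0237) and -0.35 ± 0.14 (adjusted p = 0.136), and the knockout call was lost without knockout vehicle 1 (-0.43) or 3 or knockout dexamethasone 2 or 3 and without the arrays with pancreas transcripts (-0.55, adjusted p = 0.0793). Tfpi, the inhibitor of the tissue factor pathway, changed by -0.27 ± 0.18 in knockout and -0.84 ± 0.18 in wild-type mice (adjusted p = 0.00926), and it passed in wild-type mice without the arrays with pancreas transcripts too (-1.03, adjusted p = 0.0275). Tfpi2, a related inhibitor, changed by -0.48 ± 0.14 in knockout mice (adjusted p = 0.0545) and -0.70 ± 0.14 in wild-type mice (adjusted p = 0.00554), and the knockout change passed with wild-type vehicle 1, wild-type vehicle 2 or wild-type dexamethasone 1 left out (adjusted p of 0.0273 to 0.0483) and with the replicate number as a block (adjusted p = 0.0271). Gas6, the protein S-like ligand (-0.57 ± 0.17, adjusted p = 0.0418), and Mug1, a relative of A2m (0.33 ± 0.09, adjusted p = 0.0315), also passed in wild-type mice. Leaving out wild-type dexamethasone 1, 2 or 3 or wild-type vehicle 2 ended the calls of both Gas6 (-0.44 to -0.63) and Mug1 (0.25 to 0.35), and that of Gas6 ended also without wild-type vehicle 1 (-0.54) or knockout dexamethasone 1 (-0.57). The calls of Gas6, Mug1 and Tfpi2 ended without the arrays with pancreas transcripts (-0.28, 0.29 and -0.57). The knockout passed for none of these 25 and 30 genes, where 7 and 6 had an unadjusted p under 0.05 by limma under dexamethasone (8.75% of all genes) and 1 and 2 under vehicle (7.19% of all genes).

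**Figure D5:**
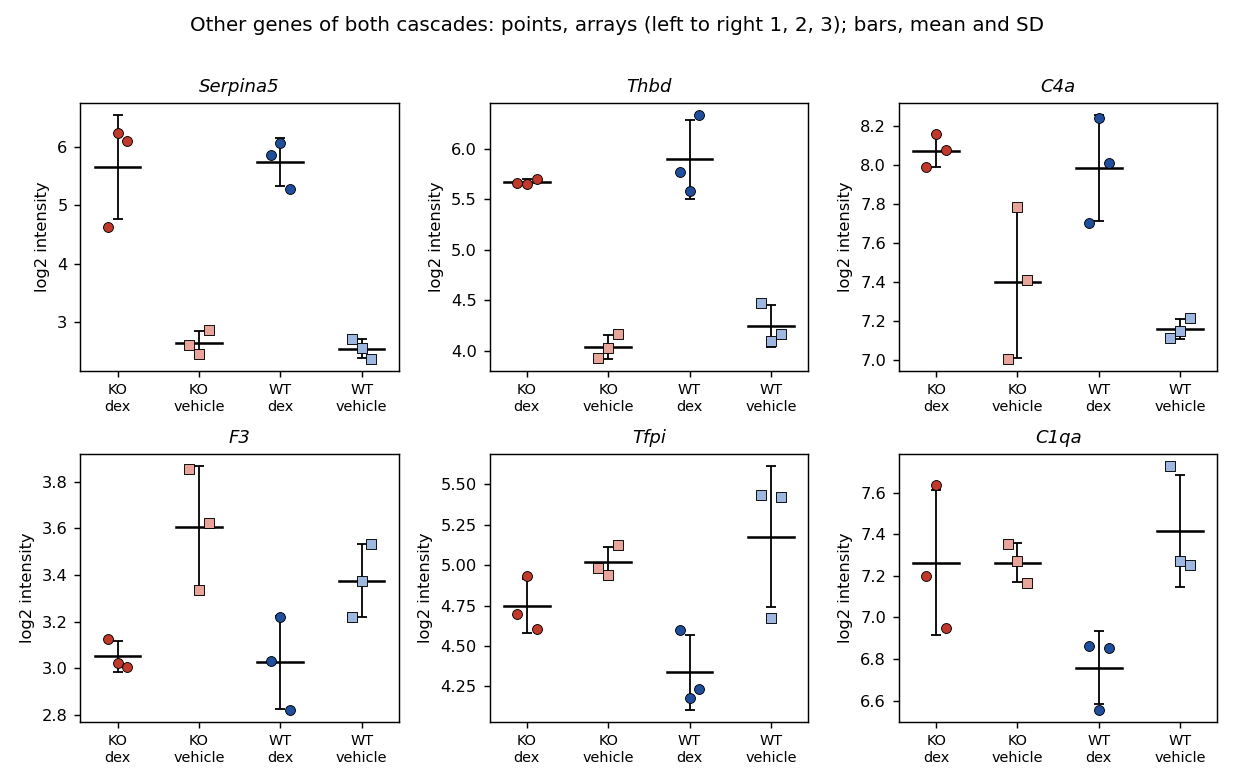
Log2 intensity (y axis) of 6 further genes of both cascades in the 4 groups, with 1 point per array and bars for the mean and SD of 3 arrays. Serpina5 and Thbd are higher in all 6 dexamethasone arrays than in all 6 vehicle arrays, and C1qa is lower on dexamethasone without overlap in wild type only.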

How the data were processed

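RNA from whole liver was measured on Affymetrix whole-transcript arrays, 1 per animal. The authors deposited log2 values of 34760 probe sets, and the submitters' processing notes name R 2.10.0 and affy as what the authors used. The methods of background correction, normalization and summarization are not given in the sources used here. Probe sets with 1 symbol (21640) stood for 19937 genes. Genes under each array's 20th percentile in more than 9 of the 12 arrays were dropped. A 4-group model of the 12 arrays was fitted with limma 3.58.1 (R 4.3.3, with the package data.table, version 1.17.8; figures with Python 3.11.15, pandas 2.3.3 and matplotlib 3.10.9), and Benjamini-Hochberg adjustment ran over all 17904 genes in each comparison. An adjusted p under 0.05 passed. Errors given with changes are standard errors (SE). The number of arrays limits the precision.

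The text names the listed genes, Hdac6, cell markers, and at most the 6 genes with the smallest p that passed in each further list. The members and lists were chosen with earlier results of these data known, so no list was tested. In simulated data for the wild-type dexamethasone comparison (17904 genes, 200 changed), 96.8% of changes of 1 and 31.7% of changes of 0.5 (log2) were recovered, with 5.44% and 5.91% false calls. Alternatives were other filters, scalings, probe set rules, variance models and array weights, a replicate block, each array left out, and the 4 arrays with pancreas transcripts left out together. Promoter windows came from RefSeq (GRCm38.p6).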

Additional observations from a re-analysis of the deposited data

How the results depend on the processing

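Across 21 alternatives none of the 37 genes' calls reversed in direction. With array weights the count for dexamethasone in knockout mice was 2, A2m having been added. Without the 4 arrays with pancreas transcripts, an alternative chosen after seeing the data, the counts for dexamethasone were 1 in knockout mice, 0 in wild-type mice (559 of all genes passed, against 2064) and 1 averaged over genotypes. Wild-type vehicle then held 1 array, assumed to vary like the other groups. The median change of complement minus that of coagulation in knockout mice was then -0.0931, against -0.0357. Leaving out each array in turn gave counts of 0 to 2 in knockout mice, 1 to 2 in wild-type mice and 1 to 2 in the average, with A2m, F13b, C6, Cfi, Mbl2 or C2 added in single cases, and 0 in each comparison of genotype and in the interaction. The median differences ran from -0.0931 to 0.0216 in knockout mice, from -0.0731 to -0.00482 in wild-type mice, from -0.0421 to 0.0657 for knockout against wild type under dexamethasone and from -0.0808 to 0.0264 for the interaction. Deviations from the group means correlated at -0.537 to 0.356 between arrays with the same replicate number. Arrays with different numbers were not set beside them, so these values do not settle whether the numbers pair the animals. With the replicate number as a block the counts were the same, 1 in knockout and 2 in wild-type mice, 1 in the average and 0 elsewhere. Among the further genes named, the calls of Serpina5 and Thbd held under all 21 alternatives.

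Each group had 3 animals, so changes near 0.5 (log2) can be missed. Genes with near-identical copies are uncertain between copies, and low probe sets such as A2m and F3 lie close to the array's floor.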

Other observations

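The probe sets left out of the account gave further values for some of the same transcripts. A second Fga probe set (10492755) averaged 9.04 ± 1.02 on dexamethasone and 9.23 ± 0.33 on vehicle in knockout mice, and 8.44 ± 0.56 on dexamethasone and 8.49 ± 0.35 on vehicle in wild-type mice (SD, n = 3 each). Its dexamethasone changes were -0.19 ± 0.45 in knockout and -0.04 ± 0.45 in wild-type mice, and its knockout changes were 0.60 ± 0.45 under dexamethasone and 0.74 ± 0.45 under vehicle. The probe set shared by Klkb1 and Cyp4v3 averaged 10.51 ± 0.07 on dexamethasone and 10.63 ± 0.02 on vehicle in knockout mice, and 10.47 ± 0.06 on dexamethasone and 10.46 ± 0.20 on vehicle in wild-type mice. The probe set shared by C1ra and C1rb changed by -0.02 ± 0.12 in knockout and -0.12 ± 0.12 in wild-type mice on dexamethasone. None of the 3 passed the limma test in any comparison (adjusted over all probe sets).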
